A study of Mus musculus with 21 samples.

Results

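Peptide transmitters are made as long precursors that a chain of enzymes cuts and modifies on the way through the Golgi and the secretory granule. The genes described here are the 9 of the 35266 in the deposited tables that code for this chain and for peptidases close to it, chosen by symbol: Pcsk1, Pcsk2, Furin, Cpe, Cpd, Pam, Qpct, Ctsl and Prcp. They were followed in AGRP and POMC neurons of the hypothalamic arcuate nucleus (ARC), the hunger-promoting and hunger-suppressing neurons of the feeding circuit, in fed and food-deprived (FD) mice. The comparisons ask how the message for the processing machinery differs with energy deficit in cells that secrete opposing peptides.

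The libraries are RNA-Seq of total RNA from 21 male mice, 1 mouse a library, on postnatal days 46 to 56. AGRP neurons came from NPY-hrGFP mice, in which the Npy promoter drives a green fluorescent protein, so that these cells are chosen by Npy reporter rather than by Agrp itself. POMC neurons came from mice with a Pomc-driven fluorescent protein, and both lines were on a C57BL/6J background. All mice were put in a fresh cage 24 hr before the experiment: fed mice (AGRP n = 5, POMC n = 5) had food ad libitum and FD mice (AGRP n = 6, POMC n = 5) had water alone. The ARC was digested with pronase and 44 to 214 fluorescent neurons a mouse were picked by hand, and their RNA was amplified after ERCC spike-in transcripts were added.

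In this pathway the precursor is cut after pairs of basic residues by proprotein convertases: furin in the Golgi, and PC1/3 (Pcsk1) and PC2 (Pcsk2) in granules. Carboxypeptidases E and D (Cpe, Cpd) then trim the exposed basic residues, peptidylglycine alpha-amidating monooxygenase (Pam) turns a C-terminal glycine into an amide, and glutaminyl cyclase (Qpct) closes an N-terminal glutamine into pyroglutamate. Cathepsin L (Ctsl) is a lysosomal protease that also cuts neuropeptide precursors in granules, and prolylcarboxypeptidase (Prcp) removes a C-terminal residue that follows proline, which inactivates alpha-MSH. In POMC neurons Pcsk1 makes ACTH, and Pcsk2, Cpe and Pam take part in its conversion to alpha-MSH. In AGRP neurons NPY is amidated by Pam, and the AGRP precursor is a substrate of Pcsk1.

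The labels matched the precursors the cells should make. Agrp was at 812 ± 306 normalized CPM (counts scaled to library size; SD, n = 5) in fed and 3434 ± 1749.8 CPM (n = 6) in FD AGRP neurons, against at most 17.0 CPM in any POMC library. Pomc was at 5348 ± 1985 CPM (n = 5) in fed and 3224 ± 616 CPM (n = 5) in FD POMC neurons, against at most 24.0 CPM in any AGRP library. In the change with deprivation, Agrp was called in AGRP neurons (log2 fold change 2.08, SE 0.39, q = 0.000531), while Npy (1.74, q = 0.0558) and Pomc in POMC neurons (-0.73, q = 0.473) were not. Npy was at 1589 to 3194 CPM in fed and 3667 to 10869 CPM in FD AGRP libraries. Pomc was at 3503 to 8196 CPM in fed and 2184 to 3782 CPM in FD POMC libraries. With another test, limma-voom, the authors reported a rise of Npy and a modest fall of Pomc, so the missed calls do not show that these are absent. The 20 markers of astrocytes, oligodendrocytes, microglia, endothelial cells and ventricular cells summed to 31.1 to 70.4 TPM (counts scaled by gene length and library size) a library: 42.1 to 70.4 TPM in fed and 31.1 to 48.3 TPM in FD AGRP, and 37.6 to 49.8 TPM in fed and 39.9 to 70.2 TPM in FD POMC libraries. Most of it was the oligodendrocyte marker Mbp, C1qa was listed at 0 in all 21 libraries, and Cldn5 in 20. The part of these cells in any result was not tested. The libraries held 9822298 to 37663979 gene counts, so that 3 counts, taken as the floor, stand for 0.0797 to 0.305 CPM. No member fell to that floor: the lowest values, of Furin, rested on 40 counts.

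All 9 members passed the filter of CPM over 1 in at least 3 libraries. Their levels spanned a wide range, in an order that was largely shared by the 4 groups. Compared per length, in TPM, Cpe was the highest in each group, at 844 ± 347 TPM (SD, n = 5) in fed AGRP, 1668 ± 767 TPM (n = 6) in FD AGRP, 1579.6 ± 465 TPM (n = 5) in fed POMC and 1603 ± 292 TPM (n = 5) in FD POMC neurons. Ctsl came second, with group means of 356 to 524 TPM, followed by Pam, with 189 to 407 TPM. Cpe exceeded Ctsl in each of the 21 libraries, although the ranges of these neighbours overlapped in fed AGRP neurons. Ctsl exceeded Pam in 20 of 21 libraries, in fed AGRP neurons in 4 of 5.

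The granule convertases followed. Pcsk1 stood above Pcsk2 in FD AGRP (265 against 162 TPM), fed POMC (144 against 126 TPM) and FD POMC neurons (171 against 156 TPM), and below it in fed AGRP neurons (100.1 against 122 TPM). The ranges of the pair overlapped in all 4 groups. Within libraries, Pcsk1 exceeded Pcsk2 in 5 of 6 FD AGRP, 4 of 5 fed POMC and 4 of 5 FD POMC libraries. In fed AGRP neurons Pcsk2 exceeded Pcsk1 in 3 of 5 libraries. The order of the pair within a group was not tested. In FD POMC neurons Pam and Pcsk1 also overlapped (189 and 171 TPM).

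Qpct (36.4 to 91.5 TPM) and Cpd (40.7 to 55.6 TPM) had lower means than the granule convertases and overlapped each other in every group. The ranges were not always apart from the convertases. Qpct overlapped Pcsk1 in fed AGRP neurons (42.9 to 67.1 against 53.6 to 124 TPM) and Pcsk2 in fed POMC neurons (61.1 to 122 against 82.0 to 183 TPM). Prcp (10.5 to 25.5 TPM) and Furin (3.39 to 6.29 TPM) were lowest, and their ranges overlapped in AGRP but not in POMC neurons. The Golgi convertase was thus present at a small part of the level of the granule convertases in every group.

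**Figure D1:**
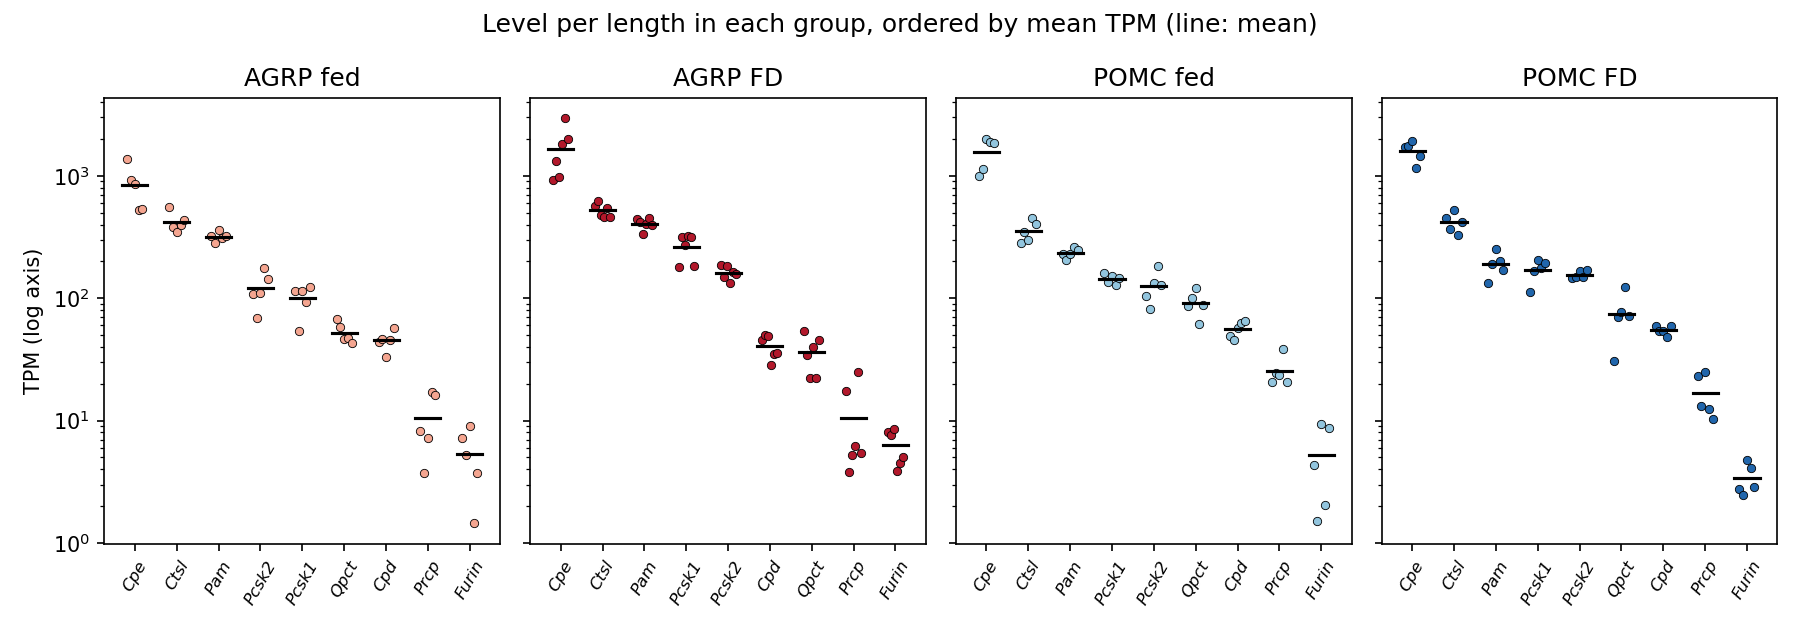
TPM of the 9 genes (log axis) in each library of the 4 groups, ordered from left to right by group mean, with a black line at the mean. Cpe, Ctsl and Pam are the highest 3 genes in each group, and Furin is the lowest.

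In AGRP neurons 5 of the 9 members rose with deprivation and none fell. Of all 16513 genes tested in this comparison 10.3% were called at q under 0.05, and 17.2% of the 8205 genes with a mean CPM over 20 in at least 1 group. The 5 were Pcsk1, Pcsk2, Cpe, Pam and Ctsl, the 5 members with the highest mean TPM in every group. The median log2 fold change of the 9 was 0.56, against -0.02 over all genes. By the stricter rule for differentially expressed genes (DEG; q under 0.05, a log2 fold change above 1 or below -1, and at least 1 group whose CPM averaged over 20), Pcsk1 and Cpe remained, where 4.46% of all genes passed. In pooled cells a larger number of transcripts per cell and a larger number of expressing cells cannot be told apart.

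The calls below the DEG size depended on the scaling. TMM factors, which set the libraries to a common level over most genes, were 1.04 to 1.11 in fed and 0.857 to 1.03 in FD AGRP libraries. With library totals alone, an alternative added after the values were seen, the median of all genes lay at -0.21 on the log2 scale in this comparison, and of the 5 only Pcsk1 (1.47, q = 2.2e-05) and Cpe (1.04, q = 0.00659) were still called. Pcsk2 (0.47, q = 0.0816), Pam (0.41, q = 0.0528) and Ctsl (0.36, q = 0.119) kept their direction without passing. Scaled to the ERCC spike-ins, whose share ranged from 0.125% to 13.5% of counts, no member was called in any of the 5 comparisons, and the median of all genes lay at -0.08 in AGRP and -1.11 in POMC neurons. In AGRP neurons the log2 fold changes stayed positive under it for Pcsk1 (1.40), Cpe (0.99), Pcsk2 (0.46), Pam (0.46) and Ctsl (0.45). The share of all genes called under it is not given here, so the loss of calls cannot be read as particular to the members.

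**Figure D2:**
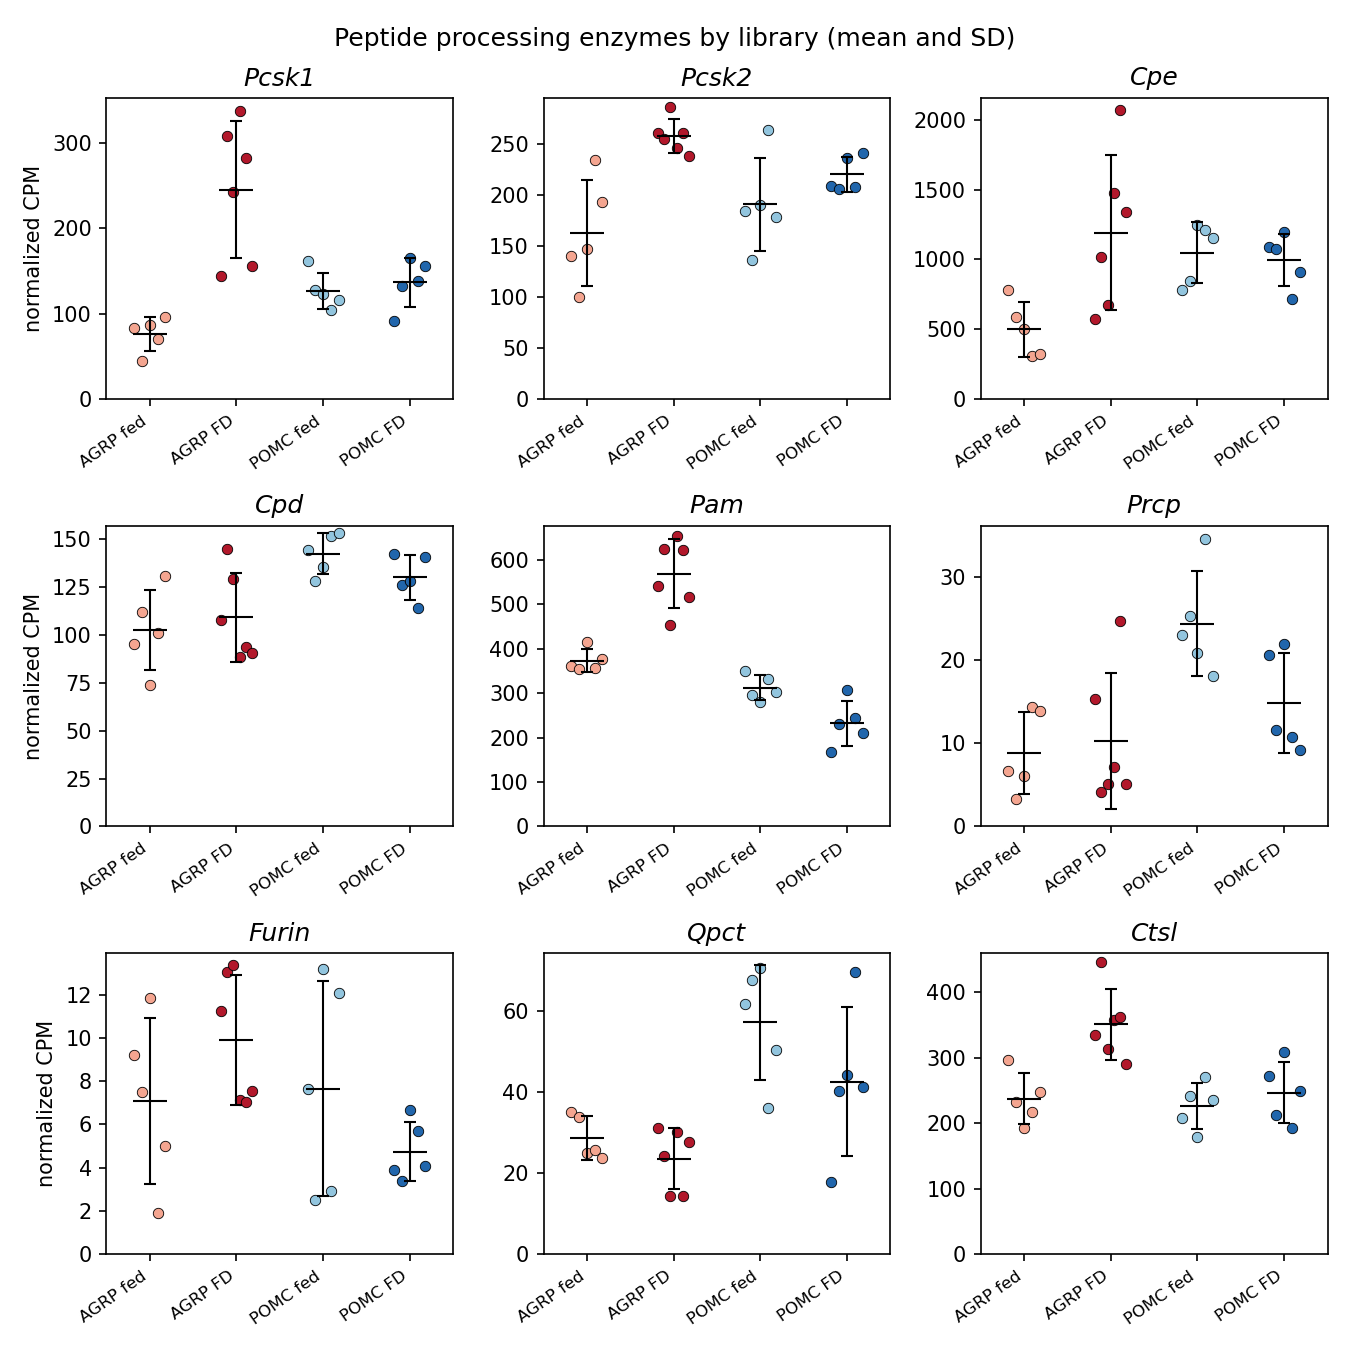
Normalized CPM of each gene in every library, with the group mean and SD; the vertical axes start at 0 and differ between panels. In AGRP neurons the FD libraries lie above all fed libraries for Pcsk1, Pcsk2 and Pam, and no such separation is seen in POMC neurons. The share of all genes with such a separation was not taken in either cell type.

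Pcsk1, the convertase that makes the first granule cuts, had the largest change of the 9. It was at 83.4, 43.9, 86.4, 70.0 and 95.6 CPM in the fed AGRP libraries and at 144 (lowest), 262 (median) and 338 CPM (highest) in the FD libraries. The lowest FD library was above the highest fed one. The increase was 3.23-fold (log2 fold change 1.69, SE 0.23, q = 6.52e-06), which placed Pcsk1 at rank 67 by p among the 16513 genes. The call held in each of 21 fits that left out 1 library, with log2 fold changes from 1.54 to 1.80. The locus covers chr13:75089826-75132498 (mm10, Ensembl ENSMUSG00000021587), and no other entry of the table overlaps it.

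The promoter stretch of Pcsk1 is shown because it carried the full cAMP response element. Of 6 motifs searched on both strands in the 300 bases around each RefSeq start (250 before and 50 after), 7 of the 9 members had a promoter entry, 9 entries in all, and Cpe and Qpct had none. Positions are counted from the RefSeq start (GRCm38.p6), and each stretch is printed up to the base before the start or before the gene's first base in the deposited table, with motif matches in capitals.
Pcsk1, chr13:75089607-75089825, plus strand, -250 to -32: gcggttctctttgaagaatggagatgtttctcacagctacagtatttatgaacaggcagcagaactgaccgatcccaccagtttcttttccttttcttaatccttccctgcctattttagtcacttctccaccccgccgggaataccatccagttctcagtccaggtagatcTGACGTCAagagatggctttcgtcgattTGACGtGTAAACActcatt
The capitals mark TGACGTCA at -78 to -71, which is the cAMP response element, its 5-base core TGACG again at -50 to -46, and the forkhead motif GTAAACA at -44 to -38. The element's letters were in 1.79% of 32851 promoters, the core, which overlaps it, in 20.8%, and the forkhead letters in 3.65%. Pcsk1 was the only member with the full element. The E-box CACGTG (7.15% of all promoters) was found in Ctsl alone, at -236 to -231, and AP-1 (TGANTCA, 7.81%) and the unfolded protein response element TGACGTGG (0.676%) in no member. Furin held the core, once on each strand, at -126 to -122 and at 29 to 33 of its first promoter and the forkhead letters at 30 to 36 of its second. These matches are letters in a window, and binding was not measured.

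Pcsk2, which cuts further within the products of Pcsk1, rose less. The fed AGRP libraries held 141, 100.1, 147, 235 and 193 CPM and the FD libraries 238, 258 and 286 CPM as lowest, median and highest. The groups did not overlap, but the highest fed and lowest FD libraries nearly touched, and the spread was larger in fed (SD 51.9) than in FD libraries (SD 16.4). The increase was 1.58-fold (log2 fold change 0.66, SE 0.18, q = 0.0134), and without AGRP fed replicate 2, the lowest library, it was 0.53 with q = 0.0559. The span of this gene (chr2:143546156-143816285) overlaps 2 antisense entries, Pcsk2os1 and Pcsk2os2. Counting ignored strand, so that reads on bases shared with them could not be told apart by strand. In TPM, where no TMM factor enters, the fed and FD ranges overlapped.
The Pcsk2 stretch, shown for comparison with Pcsk1, held the core alone, on the minus strand at -34 to -30.
Pcsk2, chr2:143545883-143546132, plus strand, -250 to -1: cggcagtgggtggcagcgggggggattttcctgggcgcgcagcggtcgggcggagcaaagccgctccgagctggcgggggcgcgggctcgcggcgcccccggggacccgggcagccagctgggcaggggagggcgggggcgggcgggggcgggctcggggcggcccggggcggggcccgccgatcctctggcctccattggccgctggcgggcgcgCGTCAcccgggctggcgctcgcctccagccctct

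Cpe, the carboxypeptidase of the granule, was the other DEG. Fed AGRP libraries held 780.4, 590.4, 502, 307 and 325 CPM and FD libraries 574, 1178 and 2069 CPM as lowest, median and highest. The increase was 2.38-fold (log2 fold change 1.25, SE 0.26, q = 0.00145), and the groups overlapped in pooled values. The AGRP libraries fall into a younger set (postnatal days 46 and 47, spike-in volume set by cell number) and an older set (postnatal days 51 to 55, 1 or 10 µl), and Cpe moved with both set and diet. In the younger set it was at 307 and 325 CPM in fed and 574 to 1017 CPM in FD libraries, and in the older set at 502 to 780.4 CPM in fed and 1339 to 2069 CPM in FD libraries. Within each set the groups did not overlap, and fold changes of the means were 2.39 and 2.61. Sets this small separate easily for any gene, and the share of all genes that did so was not taken. In AGRP neurons the volume by cell number and the younger age cannot be told apart. On postnatal day 55 both other volumes occurred, with 1 library of 1 µl in each diet. There fed Cpe was at 780.4 CPM with 1 µl and 590.4 CPM with 10 µl. In FD libraries of that day it was at 2069 CPM with 1 µl and at 1476 and 1339 CPM with 10 µl. In POMC neurons Cpe also moved with the set: it was at 782 and 843 CPM in the 2 fed libraries with the volume by cell number, at 1155 to 1245 CPM in the fed and 1078 to 1194 CPM in the FD libraries with 1 µl, and at 719 and 913 CPM in the 2 FD libraries with 10 µl.

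The other called members were compared within these sets as well. The ratio of the means was 2.79 (younger) and 3.63 (older) for Pcsk1, and 1.47 and 1.58 for Pam. For Pcsk2 it was 1.25 in the younger and 1.93 in the older set. These genes did not overlap over all AGRP libraries, so that their separation within each set was given in advance. Ctsl was separate in the younger set (1.57) and overlapped in the older (1.40). With the younger AGRP libraries left out, 4 members were called (Pcsk1, Pcsk2, Cpe and Pam), and with only the younger AGRP libraries (2 fed, 3 FD) Pcsk1 and Cpe were.

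For the 2 granule convertases, which both rose, their ratio was taken within each library, a measure added after the values were seen. The ratio of Pcsk1 TPM to Pcsk2 TPM was 1.05, 0.774, 1.04, 0.526 and 0.872 in fed AGRP libraries. In FD AGRP libraries it was 0.975 at the lowest, 1.698 at the median and 2.42 at the highest. The groups overlapped in the lowest FD library alone, and the mean log2 ratio was 0.95 higher in FD (exact two-sided permutation over libraries, p = 0.0152; 0.0606 after adjustment over 4 comparisons). In POMC neurons the median ratio was 1.14 in fed and 1.13 in FD libraries (exact permutation p = 0.595). Between the cell types the difference in log2 ratio was -0.51 in fed mice (p = 0.135) and 0.57 in FD mice (p = 0.0628) by the same exact permutation, so that none of the 4 comparisons passed after adjustment. Within the younger AGRP libraries (2 fed, 3 FD) the ratio was 0.526 to 0.872 in fed and 0.975 to 2.13 in FD mice. Within the older (3 fed, 3 FD) it was 0.774 to 1.05 and 1.15 to 2.42. The diets did not overlap in either set, but sets this small separate easily and were not tested.

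**Figure D3:**
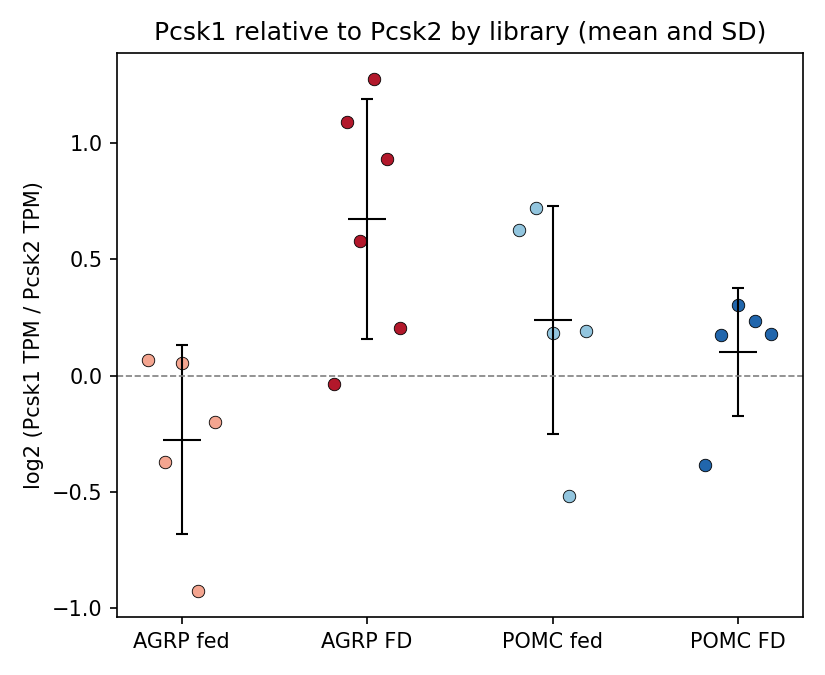
log2 of the ratio of Pcsk1 TPM to Pcsk2 TPM in every library, with group mean and SD; the dashed line marks equal TPM. In FD AGRP libraries the ratio runs from 0.975 to 2.42, and in fed AGRP libraries from 0.526 to 1.05.

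Cpd, the Golgi-based carboxypeptidase, showed no such change. Fed AGRP libraries held 95.2, 112, 74.0, 101 and 131 CPM and FD libraries 88.5 to 145 CPM, overlapping (log2 fold change 0.09, SE 0.17, q = 0.819).

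Pam, the amidating enzyme, varied least of the called members among fed AGRP libraries. It was at 361, 353, 416, 356 and 378 CPM in fed AGRP libraries and at 452, 581 and 653 CPM (lowest, median and highest) in FD libraries. All FD libraries lay above all fed libraries, with a 1.52-fold increase (log2 fold change 0.61, SE 0.14, q = 0.00418) that stayed called without any one of the 21 libraries. In TPM the increase of the means was 1.28-fold and the groups overlapped. The deposited table has 4 further entries within the span of Pam (chr1:97821094-98095632).
The Pam promoter is shown because Pam, like the convertases, did not overlap between fed and FD AGRP neurons, and none of the 6 motifs was found in it.
Pam, chr1:98095647-98095896, minus strand, -250 to -1: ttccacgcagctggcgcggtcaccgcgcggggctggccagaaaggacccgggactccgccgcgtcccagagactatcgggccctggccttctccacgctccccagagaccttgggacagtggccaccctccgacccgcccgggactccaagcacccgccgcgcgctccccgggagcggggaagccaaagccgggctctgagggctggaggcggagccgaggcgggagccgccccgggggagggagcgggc

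Qpct, the cyclase of the N-terminus, held 35.2, 34.0, 25.0, 25.7 and 23.7 CPM in fed and 14.2 to 31.1 CPM in FD AGRP libraries. These overlapped (log2 fold change -0.28, SE 0.29, q = 0.640). Its sign was opposite to that of the called members, without passing the test.

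Ctsl, the cathepsin, rose 1.48-fold (log2 fold change 0.56, SE 0.15, q = 0.0164). It was at 297, 232, 193, 217 and 248 CPM in fed and at 290.3, 346 and 447 CPM (lowest, median and highest) in FD AGRP libraries. Only the lowest FD and the highest fed library overlapped. Without AGRP fed replicate 3, the lowest, the value was 0.50 with q = 0.0638.

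Prcp and Furin were low and variable. Prcp held 6.68, 3.36, 6.03, 14.3 and 13.9 CPM in fed and 4.14 to 24.8 CPM in FD AGRP libraries (log2 fold change 0.22, SE 0.47, q = 0.849). Furin held 9.20, 7.49, 11.9, 1.90 and 4.98 CPM in fed and 7.04 to 13.4 CPM in FD libraries (0.48, SE 0.53, q = 0.669). Neither passed, and their standard errors were the largest of the 9. Both turned direction between the younger and the older AGRP libraries: the ratio of the means was 0.581 and 2.31 for Prcp, overlapping in each set, and 3.65 without overlap and 0.759 with overlap for Furin.

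**Figure D4:**
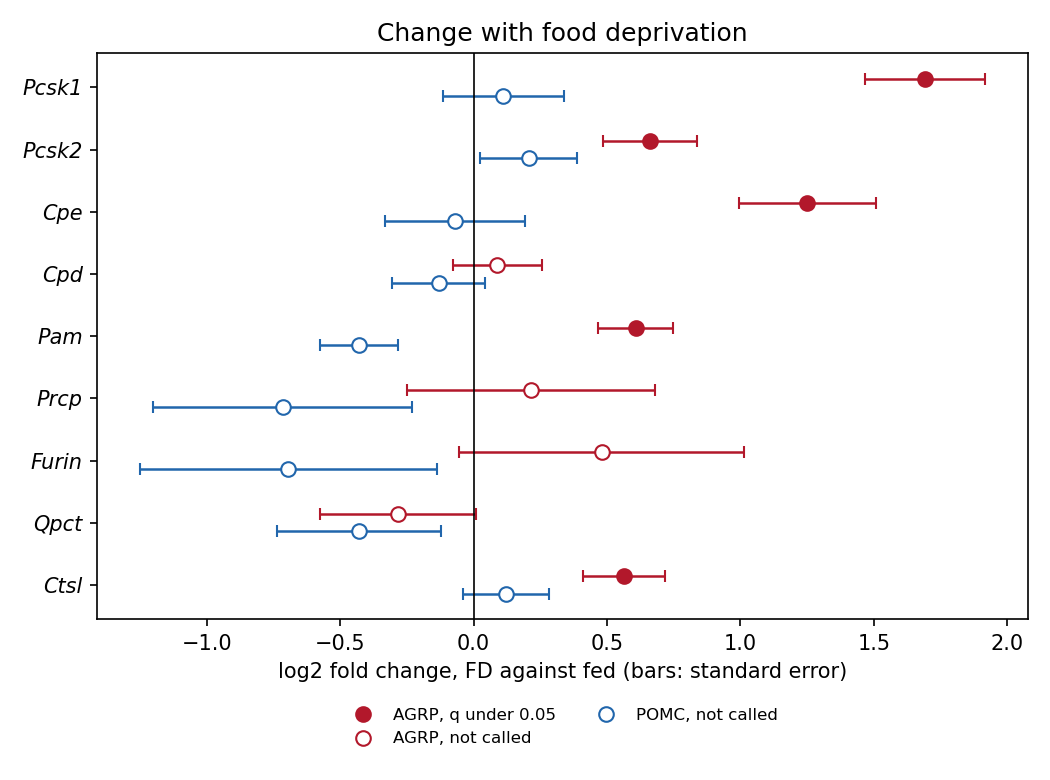
log2 fold change of FD against fed for each gene in AGRP (red) and POMC (blue) neurons, with bars of 1 standard error; filled points passed at q under 0.05. Pcsk1, Pcsk2, Cpe, Pam and Ctsl are filled in AGRP neurons, and no gene is filled in POMC neurons.

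In POMC neurons none of the 9 members was called with deprivation, by edgeR, limma-voom or DESeq2, where edgeR called 0.375% of all genes and 0.670% of those with a mean CPM over 20. By the DEG rule 0.266% of all genes passed and no member. At an unadjusted p under 0.05 there was 1 member, Pam. Their median log2 fold change was -0.13, against -0.02 over all genes.

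Pam in POMC neurons went from 349.8, 296, 281, 332 and 302 CPM in fed to 167, 230.1, 308, 243 and 211 CPM in FD libraries. In 1 FD library the value lay within the fed range, and the difference of -0.43 (log2, SE 0.15, q = 0.186) did not pass. Pcsk1 was at 161, 127, 123, 105 and 116 CPM in fed and 90.9, 132, 165, 139 and 155 CPM in FD libraries. The log2 fold change of 0.11 (SE 0.23, q = 0.908) was within the spread of the libraries. Cpe was nearly level, with 1048 ± 218 CPM in fed and 999 ± 186 CPM in FD libraries (SD, n = 5 each; log2 fold change -0.07, SE 0.26, q = 0.960).

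Of the other members, Pcsk2 (0.21, SE 0.18) and Ctsl (0.12, SE 0.16) had positive log2 fold changes in POMC neurons. Qpct (-0.43, SE 0.31), Prcp (-0.72, SE 0.49), Furin (-0.69, SE 0.56) and Cpd (-0.13, SE 0.17) had negative ones, with q between 0.5996 and 0.842 for these 4. Every member overlapped between fed and FD POMC libraries, and the share of all genes that did so was not taken. Among these libraries 10 µl of spike-in was given only to FD and the volume by cell number only to fed mice, and within the 1 µl set (3 fed, 3 FD) no member was called either.

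Whether the changes differed between the cell types was tested directly, as the AGRP change minus the POMC change. For 3 of the 9 members it passed, where 6.71% of all genes were called, 11.4% of those with a mean CPM over 20, and 4.55% by the DEG rule, which all 3 met. The difference was 1.58 (log2, SE 0.32, q = 0.0019) for Pcsk1, 1.32 (SE 0.36, q = 0.0249) for Cpe and 1.04 (SE 0.20, q = 0.00139) for Pam. The convertase, the granule carboxypeptidase and the amidating enzyme thus had a more positive change in AGRP than in POMC neurons. The median difference of the 9 was 0.93, against 0.01 over all genes. For Pam the difference combined an increase in AGRP neurons with a POMC value below 0 that was not called.

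The call of Cpe was lost without AGRP fed replicate 4 (1.19, q = 0.0526), without POMC FD replicate 4 (1.21, q = 0.0556) and with library totals in place of TMM (1.11, q = 0.0608). With the spike-in set as a block the Cpe difference was 1.66 (q = 1.26e-05), although that set is partly tied to diet in POMC neurons. Pcsk2 (0.45, SE 0.25, q = 0.326) and Ctsl (0.44, SE 0.22, q = 0.266), which were called in AGRP neurons, were not shown to change differently. Furin (1.17, SE 0.77) and Prcp (0.93, SE 0.67) had large differences with large errors, and Cpd (0.22) and Qpct (0.15) small ones. This comparison uses the same libraries as the single comparisons and is not independent of them.

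In fed mice 3 of the 9 members were called between the cell types, each lower in AGRP neurons, where 7.57% of all genes and 11.9% of those with a mean CPM over 20 were called. The median of the 9 was -0.47, against -0.01 over all genes. Cpe was 2.09-fold lower (log2 fold change -1.06, SE 0.26, q = 0.00856) and was the only DEG among them (4.02% of all genes). Its fed AGRP libraries, at 307 to 780.4 CPM, all lay below the fed POMC libraries, at 782, 843, 1245, 1213 and 1155 CPM, though the nearest libraries of the groups were almost equal. In TPM the groups overlapped.

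Pcsk1 was 1.66-fold lower in fed AGRP neurons (log2 fold change -0.74, SE 0.23, q = 0.0426), with 43.9 to 95.6 CPM in AGRP and 105 to 161 CPM in POMC libraries. Qpct was 2.00-fold lower (-0.998, SE 0.31, q = 0.0427), with 23.7 to 35.2 CPM in AGRP against 61.9, 67.7, 70.6, 36.0 and 50.4 CPM in POMC libraries. In normalized CPM the groups did not overlap in either gene, while in TPM those of Qpct did (42.9 to 67.1 against 61.1 to 122 TPM). Both calls were near the threshold. Pcsk1 was not called when AGRP fed replicate 1, 2, 3 or 4, POMC fed replicate 1, 2, 3 or 5, or POMC FD replicate 2 or 4 was left out (q = 0.0507 to 0.133). Qpct was not called when any AGRP fed library, POMC fed replicate 1, 2, 3 or 5, or POMC FD replicate 2, 3 or 5 was left out (q = 0.0506 to 0.104). With library totals in place of TMM neither was called (Pcsk1 -0.63, q = 0.0740; Qpct -0.896, q = 0.0850). The Pcsk1 call was also lost by limma-voom (q = 0.0603), with sorted cells as a covariate (q = 0.0510) and with the spike-in set as a block (q = 0.0541), and held by DESeq2 (q = 0.0275).

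Prcp had the largest difference in fed mice, 2.75-fold lower in AGRP neurons, with 3.36 to 14.3 CPM against 23.0, 25.3, 20.9, 34.6 and 18.1 CPM in POMC libraries. The groups did not overlap, but the value of -1.46 (log2, SE 0.49, q = 0.069) missed the threshold. It was called by limma-voom (q = 0.0219), by DESeq2 (q = 0.0301), with only the 2 groups compared (q = 0.0297), with a replicate block (q = 0.0482), with sorted cells as a covariate (q = 0.0262) and without AGRP FD replicate 5 (q = 0.0463). It was not called with RLE normalization, no filter or library totals (q = 0.0734 to 0.0965), with the spike-in set as a block (-1.11, q = 0.164) or with ERCC scaling (-0.92). Cpd was at 74.0 to 131 CPM in fed AGRP and at 128 to 153 CPM in fed POMC libraries (-0.47, SE 0.17, q = 0.104). Pam was slightly higher in AGRP neurons without overlap (353 to 416 against 281 to 349.8 CPM; 0.26, SE 0.14, q = 0.360), and Pcsk2 (-0.23), Furin (-0.11) and Ctsl (0.07) did not pass.

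In FD mice 4 of the 9 members were called between the cell types, where 18.6% of all genes and 27.8% of those with a mean CPM over 20 were. Pam, Pcsk1 and Ctsl were higher and Qpct was lower in AGRP neurons, and the median of the 9 was 0.25, against 0.00 over all genes. Pam was 2.45-fold higher (log2 fold change 1.29, SE 0.14, q = 5.15e-08), with 452 to 653 CPM in AGRP and 167 to 308 CPM in POMC libraries, and was the only DEG among them (8.11% of all genes). The groups were far apart, in TPM as well.

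Pcsk1 was 1.80-fold higher in FD AGRP neurons (log2 fold change 0.84, SE 0.22, q = 0.00605), the reverse of the order in fed mice. The FD ranges overlapped, since 2 of the 6 AGRP libraries (144 and 156 CPM) lay within the POMC range of 90.9 to 165 CPM. Ctsl was 1.42-fold higher (0.51, SE 0.15, q = 0.019), with 290.3 to 447 CPM against 192 to 308 CPM. Its call was lost without AGRP FD replicate 2 (q = 0.0557), POMC FD replicate 2 (q = 0.0608) or POMC FD replicate 4 (q = 0.0705), and with library totals (0.40, q = 0.0519).

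Qpct remained the member that was lower in AGRP neurons, by 1.80-fold (log2 fold change -0.85, SE 0.29, q = 0.0401). It was at 14.2, 25.9 and 31.1 CPM (lowest, median and highest) in FD AGRP and at 17.7, 40.2, 44.2, 69.8 and 41.3 CPM in FD POMC libraries. In 1 POMC library the value lay within the AGRP range. The call was lost without AGRP FD replicate 2, 3 or 5 or POMC FD replicate 2, 3, 4 or 5 (q = 0.0545 to 0.175), lowest in size without POMC FD replicate 4 (-0.61). It was also lost by limma-voom (-0.71, q = 0.129), with only the 2 groups compared (-0.86, q = 0.0931) and with a replicate block (q = 0.0562). With ERCC scaling, under which the median of all genes lay at 1.10, the value was 0.25.

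Cpe, lower in AGRP neurons of fed mice, was at 574 to 2069 CPM in AGRP and 719 to 1194 CPM in POMC libraries of FD mice (0.25, SE 0.25, q = 0.545). With the spike-in set as a block the same difference was 0.66 with q = 0.00225. Furin was at 7.04 to 13.4 CPM in AGRP and 3.39 to 6.64 CPM in POMC libraries of FD mice, without overlap, but the difference of 1.06 (SE 0.54, q = 0.187) did not pass. Pcsk2 (0.23), Cpd (-0.25) and Prcp (-0.53) did not pass either.

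**Figure D5:**
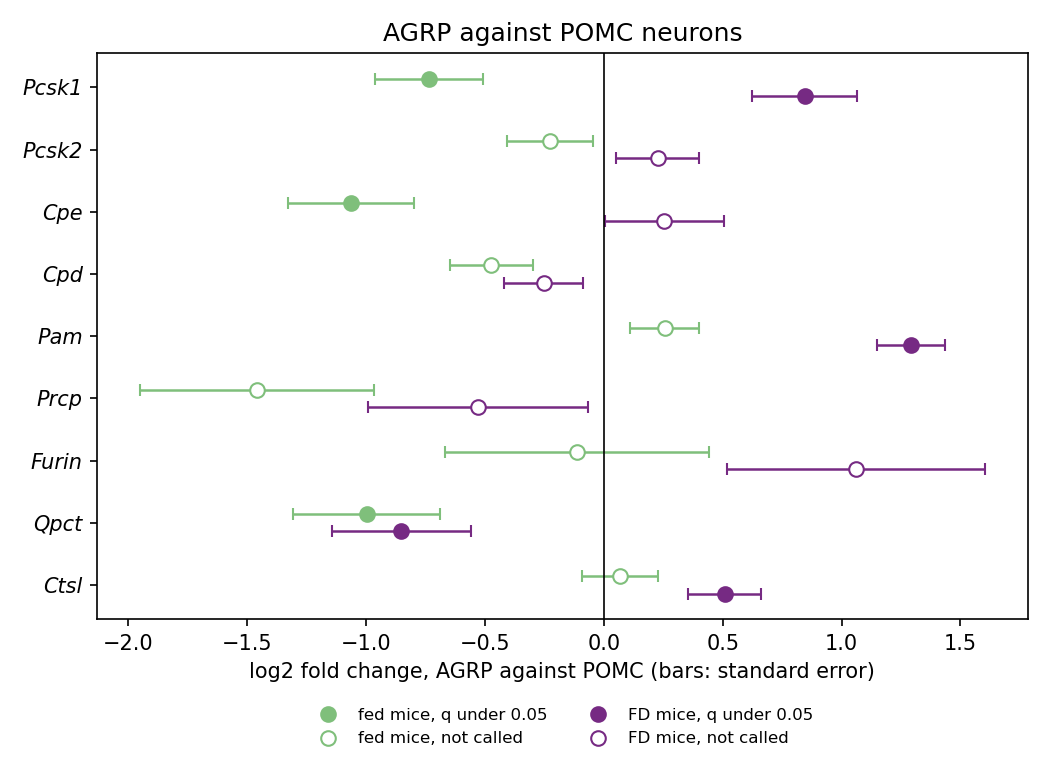
log2 fold change of AGRP against POMC neurons in fed (green) and FD mice (purple), with bars of 1 standard error; filled points passed at q under 0.05. Pcsk1 lies below 0 in fed mice and above 0 in FD mice, and Qpct lies below 0 in both, with TMM scaling.

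The members differed in how much they varied within a group. The coefficient of variation of normalized CPM was 6.34% for Pcsk2 in FD AGRP libraries and 6.91% for Pam in fed AGRP libraries. It was 46.8% for Cpe in FD AGRP libraries, 65.1% for Furin in fed POMC libraries and 79.8% for Prcp in FD AGRP libraries. The genes whose pattern was nearest to each called member, by the mean absolute difference of centred log2 CPM over 21 libraries among 8204 genes, were Rbbp7 (0.24) and Hipk2 (0.27) for Pcsk1 and Rian (0.30) and Snap25 (0.31) for Cpe. For Pam they were Ptpro and Snd1 (0.17 each), for Pcsk2 Cs (0.17) and Ywhab (0.18), for Ctsl Rrp1 (0.15) and Mcl1 (0.16), and for Qpct Jph3 (0.27) and Tango2 (0.28). The median distance to all candidates was 0.47 to 0.67.

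Around these enzymes, 76 further genes in 8 lists (other convertases, their binding proteins, other carboxypeptidases, prolyl peptidases, peptide-degrading peptidases, partners of terminal modification, cathepsins with their inhibitors, and the granule proton pump) were examined, of which 65 passed the filter. With deprivation in AGRP neurons 10 were called (15.4% of 65, against 10.3% of all genes), 9 higher and 1 lower. In POMC neurons edgeR and limma-voom called none, and 6 had an unadjusted p under 0.05 by edgeR. The difference between the changes was called for 6, all positive, or 9.23% of 65 against 6.71% of all genes. Between the cell types 9 were called in fed mice (1 higher and 8 lower in AGRP neurons; 13.8% of 65, against 7.57% of all genes). In FD mice 13 of 65 were called (9 higher and 4 lower), near the share of 18.6% over all genes. Of the genes with a mean CPM over 20, 17.2% were called in AGRP deprivation and 11.4% in the difference of changes. Between the cell types the share of those genes was 11.9% in fed and 27.8% in FD mice. In AGRP deprivation the median log2 fold change was 0.11 for the other convertases, -0.10 for the binding proteins, 0.21 for prolyl peptidases, 0.16 for degrading peptidases, 0.02 for the modification partners, -0.13 for the cathepsins and inhibitors and 0.18 for the proton pump, against -0.02 over all genes.

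None of the 6 other convertases was called with deprivation in either cell type by edgeR, and neither were the convertase-binding proteins Scg5 (7B2, the chaperone of PC2; 0.08, q = 0.817) and Pcsk1n (proSAAS, an inhibitor of PC1/3; -0.28, q = 0.698) in AGRP neurons. Pcsk5, a convertase of the constitutive pathway, was lower in AGRP than in POMC neurons, at 1.48 against 18.4 CPM in fed (log2 fold change -3.63, q = 0.000603) and 2.79 against 23.5 CPM in FD mice (-3.06, q = 0.000635). No other carboxypeptidase of the Cpe family was called by edgeR (3 of 6 passed the filter; median -1.45 in AGRP deprivation).

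Among peptidases that trim or degrade peptides (12 of 15 tested), Tpp2, Ace and Lnpep (0.53, q = 0.0183) rose and Tpp1 fell in FD AGRP neurons. Ace, the angiotensin-converting enzyme, went from 49.1 to 130 CPM (log2 fold change 1.40, SE 0.24, q = 0.000151). Tpp2, a cytosolic tripeptidyl peptidase, went from 103 to 257 CPM (1.32, SE 0.22, q = 0.000143), and Tpp1, the lysosomal one, from 51.3 to 30.7 CPM (-0.74, SE 0.24, q = 0.0433). Prepl was the 1 of 9 prolyl peptidases called (0.43, q = 0.0308). Calls with library totals in place of TMM were not taken for the lists. Whether list calls below the DEG size, such as those of Lnpep, Prepl and Atp6v0d1, hold under that scaling is therefore not known.

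Among 11 cathepsins and cystatins tested, Ctsd, Cstb and Ctsz (0.97, q = 0.0405) rose in FD AGRP neurons. Ctsd, the aspartic lysosomal protease, went from 280 to 567 CPM (log2 fold change 1.02, SE 0.14, q = 1.02e-05), and Cstb, an inhibitor of cysteine cathepsins such as Ctsl, from 13.9 to 89.5 CPM (2.69, SE 0.42, q = 5.87e-05). The Cstb change also exceeded that in POMC neurons (3.75, SE 0.58, q = 0.00011). Ctsb was lower in AGRP than in POMC neurons in both states (-0.86 fed, q = 0.00307; -0.83 FD, q = 0.00113), while Ctsl was at 0.07 in fed and 0.51 in FD mice.

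Of 16 proton pump genes, which acidify the granule in which these enzymes act, Atp6v1b2 (582 to 1157 CPM; log2 fold change 0.99, q = 1.34e-05) and Atp6v0d1 (295 to 462 CPM; 0.65, q = 0.0266) rose in FD AGRP neurons. Among the partners of terminal modification, Atp7a, the copper transporter that supplies Pam with its metal, was not called with deprivation (0.07 in AGRP, 0.20 in POMC neurons) but was higher in AGRP than in POMC neurons. It was at 196 against 37.5 CPM in fed (2.38, SE 0.21, q = 1.13e-09) and 205 against 43.0 CPM in FD mice (2.25, SE 0.21, q = 1.24e-09).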

How the data were processed

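RNA-Seq was performed on hand-sorted AGRP and POMC neurons of 21 mice. The authors trimmed reads with cutadapt 1.7.1, aligned them with STAR 2.4.0i to mm10 and assigned them to genes with HTSeq 0.6.1p1 without regard to strand, using Gencode VM4, and Bowtie2 2.1.0 is also named in the submitters' processing notes. They deposited raw read counts per gene for every library, and TPM that the authors made from those counts and the summed exon length of each gene. Of the reads, 25.5% to 53.0% were off genes or ambiguous, and these rows and the 92 ERCC rows stayed out of library sizes.

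The deposited counts were analysed in edgeR 4.0.16 (R 4.3.3): TMM normalization, CPM over 1 in at least 3 libraries (16513 genes), and 1 quasi-likelihood fit over 4 groups without covariates. The 5 comparisons share libraries. q is the Benjamini-Hochberg value over all genes tested, log2 fold changes carry standard errors, and CPM in the text is TMM-normalized. Levels between genes were compared in TPM. The fit was run on counts simulated with its own dispersions, in which the groups differed only by changes planted in FD AGRP libraries. That run does not show how the fit fares with the spread of the real libraries. The genes named are the 9 members in every comparison, at most the 4 called genes with the lowest q of each list and comparison, the 2 nearest in pattern to each called member, and Agrp, Npy and Pomc as a check; Scg5 and Pcsk1n, and Atp7a under deprivation, fall outside this rule and were chosen after their values were seen. Members and lists were chosen with earlier results of these data known. Each library is 1 mouse, so p-values measure the spread between mice. No libraries were identical (highest correlation 0.949), and floors cover counting error only. Alternatives were limma-voom 3.58.1, DESeq2 1.42.0, RLE normalization, no filter, the 2 groups alone, a replicate block, sorted cells or spike-in set as a covariate, ERCC scaling, the stricter call and each library left out. Subsets of the spike-in sets and library totals without TMM were added after the data were seen. Promoter letters are from RefSeq (GRCm38.p6).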

Additional observations from a re-analysis of the deposited data

Results flagged for a closer look

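The change with deprivation differed between AGRP and POMC neurons, by the test of the difference itself, for 3 of the 9 genes. Of all genes 6.71% were called in this test, and 11.4% of those with a mean CPM over 20. The AGRP change exceeded the POMC change by 1.58 on the log2 scale for Pcsk1, by 1.32 for Cpe and by 1.04 for Pam. The Cpe call depended on the setting: it was lost without AGRP fed replicate 4 or POMC FD replicate 4, with a replicate block and with library totals. With the spike-in set as a block it held, at 1.66 (q = 1.26e-05). In each group of 5 or 6 libraries the highest and lowest values of the 9 genes were compared with their neighbours by Dixon's criterion, and in 0 of 36 groups did a library stand apart.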

How the results depend on the processing

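In the fits that left out 1 library each, the number of the 9 genes called was 4 to 5 for AGRP deprivation, 0 to 0 for POMC deprivation, 1 to 4 between cell types in fed mice, 2 to 4 in FD mice and 2 to 3 for the difference of changes. Signs turned only for values that were not called: Cpd (-0.0082 to 0.19) and Prcp (-0.26 to 0.46) in AGRP and Cpe in POMC deprivation (-0.16 to 0.038), Ctsl (-0.027 to 0.14) and Furin (-0.37 to 0.18) in fed mice, and Qpct in the difference of changes (-0.050 to 0.38). With ERCC scaling 0 of the 9 genes were called in AGRP deprivation, 0 in fed mice, 0 in FD mice and 0 in the difference of changes. The share of all genes called with it is not given here. Under it the sign turned for Prcp in AGRP (-0.40), for Pcsk1 (-1.06), Pcsk2 (-0.79) and Ctsl (-0.94) in POMC deprivation, for Pcsk2 in fed mice (0.21), and for Cpd (1.04), Prcp (0.35) and Qpct (0.25) in FD mice, while the median of all genes lay at -0.08, -1.11, 0.08, 1.10 and 1.04 in the 5 comparisons. The stricter call left 2 genes in AGRP deprivation, 1 in fed and 1 in FD mice. Library totals without TMM left 2 in AGRP deprivation and 1 in fed mice, and turned Cpd in AGRP (-0.10), Furin in fed mice (0.010) and Qpct in the difference (-0.060). The younger AGRP libraries alone gave 2 calls and a Prcp value of -0.78, and the older alone turned Cpd (-0.044) and Furin (-0.40). Sorted cells as a covariate turned Furin in fed mice (0.057). The cause of these changes was not tested.

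With a replicate block the counts were 5, 0, 3, 3 and 2. It took the calls of Qpct in fed (-1.02, q = 0.0628) and FD mice (-0.93, q = 0.0562) and of Cpe in the difference (1.25, q = 0.0777), and gave that of Prcp in fed mice (-1.64, q = 0.0482). Only 1 of 20 same-numbered pairs had a correlation over 0.1 (-0.18 to 0.12), so the numbers do not pair the libraries.

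By median in place of mean TPM, 7 of the 9 ranks were kept in fed and 7 in FD AGRP neurons. For the other pathway genes limma-voom called 3 lower in AGRP deprivation, 2 higher in fed mice and 1 lower in the difference. ERCC scaling called 0 higher and 0 lower in AGRP deprivation, 0 higher and 1 lower in fed mice, 0 lower in FD mice and 2 higher in the difference. Furin and Prcp, at 40 to 684 counts a library, are the genes that depth limits most.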
